A study of Homo sapiens with 6 samples.

Results

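The HLA class I and antigen presentation genes comprised 9 genes: the heavy chain genes HLA-B, HLA-C, HLA-E and HLA-F, the light chain gene B2M, the peptide transporter genes TAP1 and TAP2, the tapasin gene TAPBP and the peptide-trimming gene ERAP1. All 9 were among the 15897 genes listed with an expression value, and they were taken by name. RNA of cells labelled H1650, an established human lung adenocarcinoma line, was sequenced in 6 libraries. In the labels, 3 control libraries carry the genotype wild type and 3 libraries carry shSETD2, a short hairpin RNA against SETD2, and no dose, time or further treatment is given. SETD2 is the histone methyltransferase that places the trimethyl mark on lysine 36 of histone H3. The study made several hairpin constructs, and neither the labels nor its methods say whether the shSETD2 libraries numbered 1 to 3 stand for different constructs or for cultures of 1 construct, nor that the libraries of a group came from separate cultures. The p-values below therefore measure only the spread between these libraries, which may be technical. Expression was given as FPKM, fragments scaled to transcript length and to the mapped fragments of the library. The levels of different genes can therefore be set side by side as far as reads were assigned to the right gene, which is uncertain for some genes below. The number of fragments behind each value is unknown.

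MHC class I molecules show peptides from inside the cell to CD8+ T cells. The proteasome cuts proteins into peptides, TAP1 and TAP2 together pump them into the endoplasmic reticulum, ERAP1 trims them there, and tapasin holds the empty heavy chain and its light chain, beta-2 microglobulin, at the transporter until a peptide is bound. HLA-B and HLA-C are classical, highly polymorphic heavy chains that present peptides to T cells. HLA-E presents mainly leader peptides of other class I chains to NKG2A receptors of natural killer cells, and HLA-F is a nonclassical chain of restricted surface display. Interferons and NF-κB are well-known inducers of these genes, acting through the interferon-stimulated response element (ISRE) and the κB site of their promoters, and the transactivator NLRC5 acts through the SXY module of class I promoters.

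The promoter letters are shown first because the heavy chain genes differed in which of the searched patterns they matched. HLA-B and HLA-C matched the κB consensus and HLA-F the ISRE core. An ISRE with other letters would be missed by this search, so HLA-B and HLA-C cannot be said to lack one. RefSeq promoters of GRCh38.p14, from 250 bases before to 50 bases after each start, were found for 8 of the 9 genes, all but HLA-E, and these genes had 10 promoters between them. Each line gives the matches before the start of the gene with 15 bases on both sides where these also lay before it, 5′ to 3′ on the strand of the gene, and capitals mark matches to the ISRE core (GAAA, any 2 bases, GAAA) or to the κB consensus on either strand. The intervals were chr6:31357331-31357371 for HLA-B, chr6:31272240-31272279 for HLA-C, chr6:32853752-32853853 for TAP1, chr6:32838773-32838812 for TAP2, chr6:33314079-33314149 for TAPBP and chr5:96807994-96808033 for ERAP1, all on the minus strand, and chr6:29723263-29723302 for HLA-F and chr15:44711358-44711416 for B2M on the plus strand.
HLA-B: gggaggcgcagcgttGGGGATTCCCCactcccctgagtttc
HLA-C: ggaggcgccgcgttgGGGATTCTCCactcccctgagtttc
HLA-F: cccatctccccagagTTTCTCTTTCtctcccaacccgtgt
B2M: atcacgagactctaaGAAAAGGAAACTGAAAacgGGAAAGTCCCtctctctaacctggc
TAP1: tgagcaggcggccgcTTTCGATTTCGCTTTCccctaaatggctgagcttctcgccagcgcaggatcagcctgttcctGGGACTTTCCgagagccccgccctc
TAP2: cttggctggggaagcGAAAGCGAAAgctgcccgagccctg
TAPBP: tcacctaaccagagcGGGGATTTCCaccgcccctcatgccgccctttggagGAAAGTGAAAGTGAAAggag
ERAP1: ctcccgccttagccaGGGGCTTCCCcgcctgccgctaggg

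The ISRE core was found in the promoters of 6 of the 8 genes, HLA-F, B2M, TAP1, TAP2, TAPBP and ERAP1, where 3.57% of all 35116 RefSeq promoters hold it. In B2M, TAP1 and TAPBP it occurred as a pair of overlapping copies, and in ERAP1 it lay just after the start of the gene and is not printed, as was also the case for a further κB match of TAP1. The κB consensus was found in 6 of the 8 genes, HLA-B, HLA-C, B2M, TAP1, TAPBP and ERAP1, against 11.3% of all promoters. The stretches around it in HLA-B and HLA-C were nearly alike. The CCAAT box (CCAAT) was found in 6 of the 8 genes, HLA-B, HLA-C, HLA-F, B2M, TAP1 and ERAP1, against 34.6% of all promoters. The GAS element (TTCNNNGAA) was found in TAP1 alone, against 7.66%, in another promoter (start at base 32852761) than the one printed. The cAMP response element (TGACGTCA) was found in none of the 8, against 1.85%. The counts are of genes with a match in any of their promoters, while the percentages are of promoters. These matches describe letters within the windows and no binding was measured.

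The groups differed across most of the transcriptome, and this stands beside every result below. Of the 14068 genes whose mean FPKM reached 0.5, 78.6% differed at an adjusted p under 0.05 (limma, Benjamini-Hochberg over all genes tested), 26.8% being higher with shSETD2 and 51.8% lower. The median log2 fold change of all of them was -0.29, and it was -0.03 after median ratio scaling. With that scaling, in which each library is divided by its median ratio to the geometric mean over libraries, 5215 genes were higher and 5505 lower, so that 48.6% of the genes that differed were higher, against 34.1% with the FPKM as deposited. SETD2 had 18.0, 10.2 and 17.6 FPKM in control libraries 1 to 3 and 8.97, 8.09 and 12.2 in shSETD2 libraries 1 to 3, so the targeted gene overlapped between groups (log2 fold change -0.58 ± 0.24, SE, adjusted p = 0.0641 in limma), and the libraries are called by their labels. Of 10 markers of lung epithelium, 2 were listed, with a summed FPKM of 2.11 to 2.46 in the control and 2.19 to 2.94 in the shSETD2 libraries, and they went opposite ways. NKX2-1, the lung lineage factor, had 1.44 to 1.80 FPKM in the control libraries and was listed at 0 in every shSETD2 library, whereas the mucin MUC1 rose from 0.639 ± 0.133 to 2.65 ± 0.402 FPKM (SD, n = 3, adjusted p = 7.60e-05 in limma). Of 8 epithelial markers, 7 were listed, with a summed FPKM of 14.1 to 16.0 in the control and 402 to 455 in the shSETD2 libraries. This sum was chiefly that of the keratins KRT7, KRT8 and KRT18, and the markers did not move together. The cadherin CDH1 was lower, and so was EPCAM, from 0.710 ± 0.124 to 0.220 ± 0.0712 FPKM (SD, n = 3). CLDN4 rose from 0.0670 to 0.175 and ESRP1 from 0.0176 to 0.803 FPKM. EPCAM, CLDN4 and ESRP1 had a mean FPKM under 0.5 and were not tested. Of 12 leukocyte markers, CD68 and CD14 were listed, with a summed FPKM of 1.33 to 1.62 and of 1.91 to 2.24, and the pan-leukocyte marker PTPRC was not listed. A difference in the identity of the cells between the groups and an effect of the hairpin cannot be told apart with these libraries, and neither can fewer cells of a type and less RNA per cell.

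All 9 genes passed the filter on low values, and all 9 passed the test, where 78.6% of all genes tested did. In the libraries labelled shSETD2, 6 were higher (26.8% of all genes tested) and 3 lower (51.8% of all genes tested). The same shares stand beside the counts of the lists below. The transporter, loading, trimming and light chain genes TAP1, TAP2, TAPBP, ERAP1 and B2M rose together with HLA-E, whereas HLA-B, HLA-C and HLA-F fell. The groups did not overlap for any of the 9, with every shSETD2 library above every control library for 6 genes (27.9% of all genes tested) and below for 3 genes (53% of all genes tested). The median log2 fold change of the 9 was 1.47, against -0.29 for all genes tested. Each of the 9 had an exact permutation p of 0.1, the smallest that 3 libraries against 3 allow, so the adjusted p-values lean on the variance model of limma. They were computed from log2(FPKM + 1), and for genes of low FPKM this scale gives too small a fold change.

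**Figure D1:**
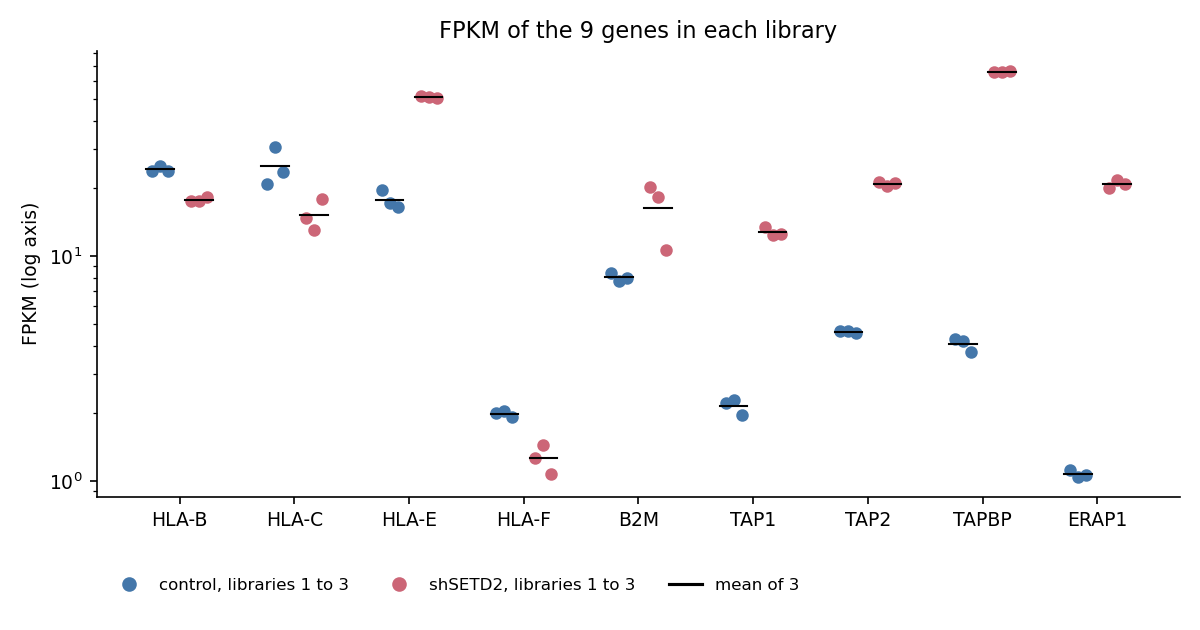
FPKM on a log axis of the 9 genes in each of the 3 control and 3 shSETD2 libraries, with points for libraries and a line for the mean of 3. TAPBP and ERAP1 lie furthest apart between the groups, HLA-B, HLA-C and HLA-F lie lower in the shSETD2 libraries, and shSETD2 library 3 of B2M, at 10.6 FPKM, lies close to the control libraries.

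TAPBP (ENSG00000231925.11_2) encodes tapasin and occupies bases 33267471 to 33282164 of chromosome 6 in hg19, minus strand. It had 4.29, 4.19 and 3.76 FPKM in control libraries 1 to 3 and 65.7, 65.8 and 66.5 FPKM in shSETD2 libraries 1 to 3. The shSETD2 libraries were nearly equal to one another and all far above the control libraries. The mean rose from 4.08 ± 0.285 to 66.0 ± 0.417 FPKM (SD, n = 3), a ratio of 16.2 and a log2 fold change of 3.72 ± 0.052 (SE, adjusted p = 2.92e-08 in limma). Ranked among all listed genes, TAPBP moved from the 49.1 percentile of mean FPKM in the control to the 97.5 percentile in the shSETD2 libraries. In the reference transcripts, 7.09% of the 50-base windows of TAPBP also occur in another gene, and the part of such reads in its values was not tested.

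ERAP1 (ENSG00000164307.12_3), the aminopeptidase of the endoplasmic reticulum that shortens peptides to the length class I molecules hold, occupies bases 96096514 to 96143803 of chromosome 5, minus strand. It had 1.12, 1.05 and 1.06 FPKM in the control libraries and 20.0, 21.9 and 20.9 FPKM in the shSETD2 libraries. This was the lowest gene of the 9 in every control library, and the ratio of its means, 19.5, was the largest of the 9. Its mean rose from 1.08 ± 0.0354 to 20.9 ± 0.917 FPKM (SD, n = 3), which on the log2 scale is a fold change of 3.40 ± 0.052 (SE, adjusted p = 3.94e-08 in limma). Over 18786 bases ERAP1 overlaps CAST, the calpastatin gene of the opposite strand, whose mean was 9.10 ± 0.0957 FPKM in the control and 19.7 ± 0.893 FPKM in the shSETD2 libraries. The library kit keeps strand, but whether the counting used it is not given in the sources used here, and the part of CAST reads in ERAP1 was not tested.

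TAP1 and TAP2 encode the paired chains of the peptide transporter. TAP1 (ENSG00000168394.10_2, chromosome 6, 32812986 to 32821755, minus strand) had 2.23, 2.29 and 1.96 FPKM in the control libraries and 13.5, 12.4 and 12.5 FPKM in the shSETD2 libraries. TAP2 (ENSG00000204267.13_3, chromosome 6, 32789610 to 32806557, minus strand) had 4.64, 4.63 and 4.56 FPKM in the control libraries and 21.3, 20.4 and 21.1 FPKM in the shSETD2 libraries. For both genes the spread within a group was small beside the distance between groups. The log2 fold change was 2.13 ± 0.064 for TAP1 (SE, adjusted p = 4.60e-07 in limma) and 1.97 ± 0.041 for TAP2 (SE, adjusted p = 1.07e-07 in limma). TAP1 was the scarcer of the pair in every library, and the FPKM of TAP1 over that of TAP2 was 0.480, 0.494 and 0.429 in the control and 0.635, 0.606 and 0.593 in the shSETD2 libraries (exact permutation p = 0.1, two-sided, the smallest possible). The pair moved less than tapasin. TAPBP over the sum of TAP1 and TAP2 was 0.603 ± 0.0241 in the control and 1.96 ± 0.0584 in the shSETD2 libraries (SD, n = 3).

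The whole of TAP1 as positioned in the deposited table, 8770 bases, lies within the interval of PSMB9, an immunoproteasome gene on the opposite strand that rose from 0.198 ± 0.105 to 10.2 ± 0.402 FPKM (SD, n = 3), and 1287 bases of TAP1 overlap PSMB8-AS1, which had at most 0.0907 FPKM in a control library and 0.208 to 0.537 FPKM in the shSETD2 libraries. In the reference transcripts, 35.3% of the 50-base windows of TAP2 and 1.18% of those of TAP1 also occur in transcripts of the gene ENSG00000250264, so reads there could be assigned to either. The part of these neighbours in the values of TAP1 and TAP2 was not tested.

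B2M (ENSG00000166710.17_2) encodes beta-2 microglobulin, the light chain shared by the class I heavy chains, and occupies bases 45003675 to 45011075 of chromosome 15, plus strand. It had 8.42, 7.72 and 7.98 FPKM in control libraries 1 to 3 and 20.2, 18.3 and 10.6 FPKM in shSETD2 libraries 1 to 3. All shSETD2 libraries were above the control libraries, but shSETD2 library 3 was much nearer to them than the other two. The mean rose from 8.04 ± 0.357 to 16.4 ± 5.06 FPKM (SD, n = 3), which on the log2 scale is a fold change of 0.90 ± 0.22 (SE, adjusted p = 8.80e-03 in limma). Without shSETD2 library 3 the log2 fold change was 1.16 (adjusted p = 5.01e-05 in limma). None of the 50-base windows of B2M occurs in another gene.

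HLA-E (ENSG00000204592.8_2, chromosome 6, 30457244 to 30461982, plus strand) was the one heavy chain of the 4 that rose. It had 19.6, 17.3 and 16.5 FPKM in the control libraries and 51.3, 51.2 and 50.5 FPKM in the shSETD2 libraries. The shSETD2 libraries were nearly equal and all far above the highest control library. The mean rose from 17.8 ± 1.63 to 51.0 ± 0.455 FPKM (SD, n = 3), a ratio of 2.87 and a log2 fold change of 1.47 ± 0.066 (SE, adjusted p = 2.49e-06 in limma).

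HLA-B (ENSG00000234745.10_2) had 23.9, 25.2 and 23.8 FPKM in the control libraries and 17.6, 17.6 and 18.2 FPKM in the shSETD2 libraries. HLA-C (ENSG00000204525.16_2, chromosome 6, 31236526 to 31239907, minus strand) had 21.0, 30.7 and 23.7 FPKM in the control libraries and 14.8, 13.0 and 18.0 FPKM in the shSETD2 libraries. HLA-B was even within each group, while the HLA-C libraries of a group spread widely and control library 2 stood highest. The log2 fold change was -0.43 ± 0.042 for HLA-B (SE, adjusted p = 1.04e-04 in limma) and -0.68 ± 0.16 for HLA-C (SE, adjusted p = 8.49e-03 in limma). Relative to the median of all genes tested the changes were -0.14 and -0.39. The calls of these genes depended on the scaling: after median ratio scaling the log2 fold changes were -0.11 for HLA-B (adjusted p = 0.0600 in limma) and -0.36 for HLA-C (adjusted p = 0.0919 in limma), still negative but short of the threshold.

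The deposited table gives HLA-B the bases 31237268 to 31324965 of chromosome 6, minus strand, an interval that begins inside HLA-C and shares 2640 bases with it on the same strand. In the GENCODE v44 annotation lifted to the same build, HLA-B runs from 31321649 to 31334844 and does not touch HLA-C. In the reference transcripts 2.02% of the 50-base windows of HLA-B also occur in HLA-C, and between 1.89% and 6.76% of the windows of HLA-F, HLA-E and HLA-C occur in some other gene. Reads of such stretches could be split between genes, and the FPKM of HLA-B and HLA-C in particular is uncertain.

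HLA-F (ENSG00000204642.13_3, chromosome 6, 29690552 to 29706305, plus strand) was the scarcest of the 4 heavy chains. It had 2.01, 2.05 and 1.93 FPKM in the control libraries and 1.27, 1.44 and 1.08 FPKM in the shSETD2 libraries. The shSETD2 libraries lay below the control libraries with a gap larger than the range within either group. The log2 fold change was -0.41 ± 0.074 (SE, adjusted p = 2.29e-03 in limma), or -0.12 relative to the median of all genes tested, and after quantile normalization it was -0.02 (adjusted p = 0.818 in limma). HLA-F shares 11928 bases with HLA-F-AS1 of the opposite strand, which had a log2 fold change of -0.58 (adjusted p = 9.14e-05 in limma) and one of -0.09 after quantile normalization (adjusted p = 0.187 in limma).

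**Figure D2:**
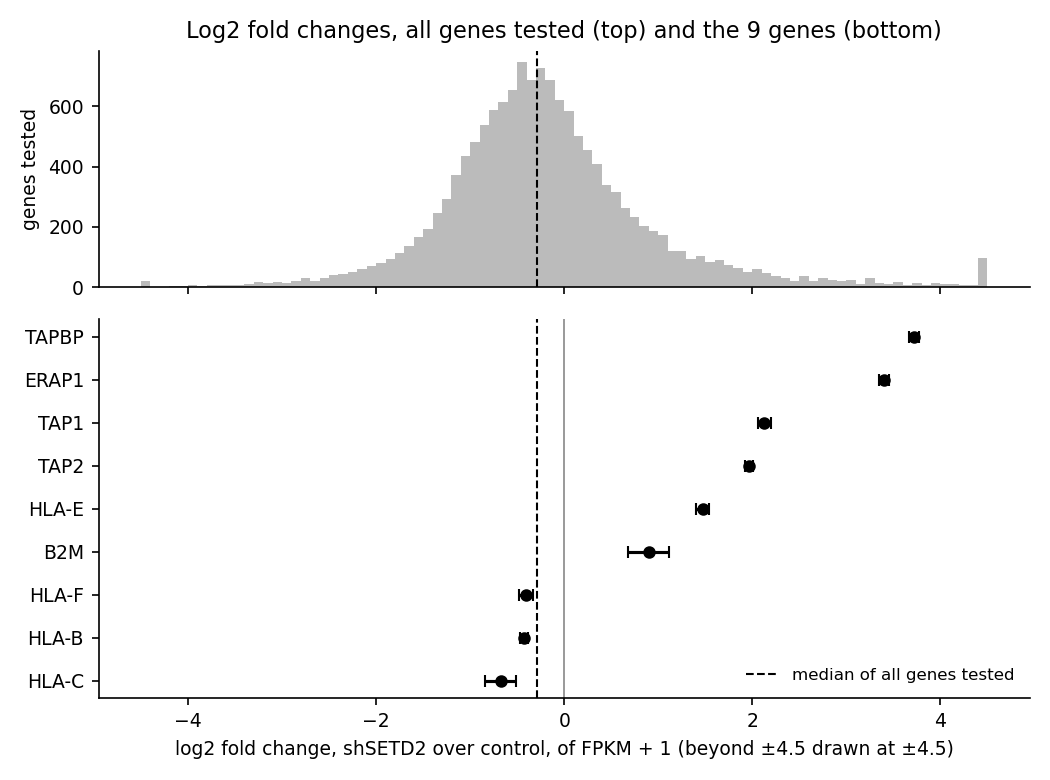
Log2 fold change of FPKM + 1, shSETD2 over control, as a histogram over the 14068 genes tested (top) and for the 9 genes with points for estimates and bars for standard errors (bottom). The dashed line marks the median of all genes tested, -0.29, and HLA-B and HLA-F lie closest to it.

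In the control libraries the order of mean FPKM was HLA-C, HLA-B, HLA-E, B2M, TAP2, TAPBP, TAP1, HLA-F and ERAP1. HLA-C and HLA-B overlapped over the libraries, as did TAP1 and HLA-F, and the other neighbours in this order did not. In the shSETD2 libraries TAPBP stood first, followed by HLA-E, ERAP1, TAP2, HLA-B, B2M, HLA-C, TAP1 and HLA-F. There ERAP1 and TAP2 overlapped, and HLA-B, B2M, HLA-C and TAP1 formed a run in which each overlapped its neighbour. The loading gene TAPBP, with 4.08 FPKM in the control libraries well below the FPKM of HLA-B and HLA-C, thus exceeded the FPKM of every heavy chain of the set in the shSETD2 libraries.

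The make-up of the heavy chain RNA differed more than its sum. The FPKM of HLA-B, HLA-C, HLA-E and HLA-F summed to 66.5, 75.3 and 65.9 in the control libraries and to 85.0, 83.3 and 87.8 in the shSETD2 libraries, which did not overlap (exact permutation p = 0.1, two-sided, the smallest possible). These sums cover these 4 genes only. The share of HLA-E in the sum was 29.5%, 23.0% and 25.0% in the control libraries and 60.4%, 61.4% and 57.5% in the shSETD2 libraries. Over the same libraries the mean share of HLA-B was 35.2% ± 1.44 in the control and 20.9% ± 0.234 in the shSETD2 libraries (SD, n = 3). The mean share of HLA-C was 36.1% ± 4.60 and 17.9% ± 2.47 (SD, n = 3), and that of HLA-F was 2.89% ± 0.153 and 1.49% ± 0.253 (SD, n = 3). No share overlapped between the groups, and each had an exact permutation p of 0.1. The shares are parts of the same sum, so the rise of HLA-E by itself lowers the other 3, and these are not separate results. The FPKM of HLA-B was 0.734 of its control mean with shSETD2, and its share was 0.594 of that in the control. The uncertainty of the FPKM of HLA-B and HLA-C carries over to the sum and the shares. HLA-E FPKM over the summed FPKM of HLA-B and HLA-C was 0.364 ± 0.0659 in the control and 1.55 ± 0.142 in the shSETD2 libraries (SD, n = 3).

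B2M FPKM over the summed FPKM of the 4 heavy chains was 0.127, 0.103 and 0.121 in the control libraries and 0.238, 0.220 and 0.121 in the shSETD2 libraries. In shSETD2 library 3 the ratio fell within the range of the control libraries, so the groups overlapped (exact permutation p = 0.3, two-sided, smallest possible 0.1). The B2M transcript was below the heavy chain sum in every library of both groups.

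**Figure D3:**
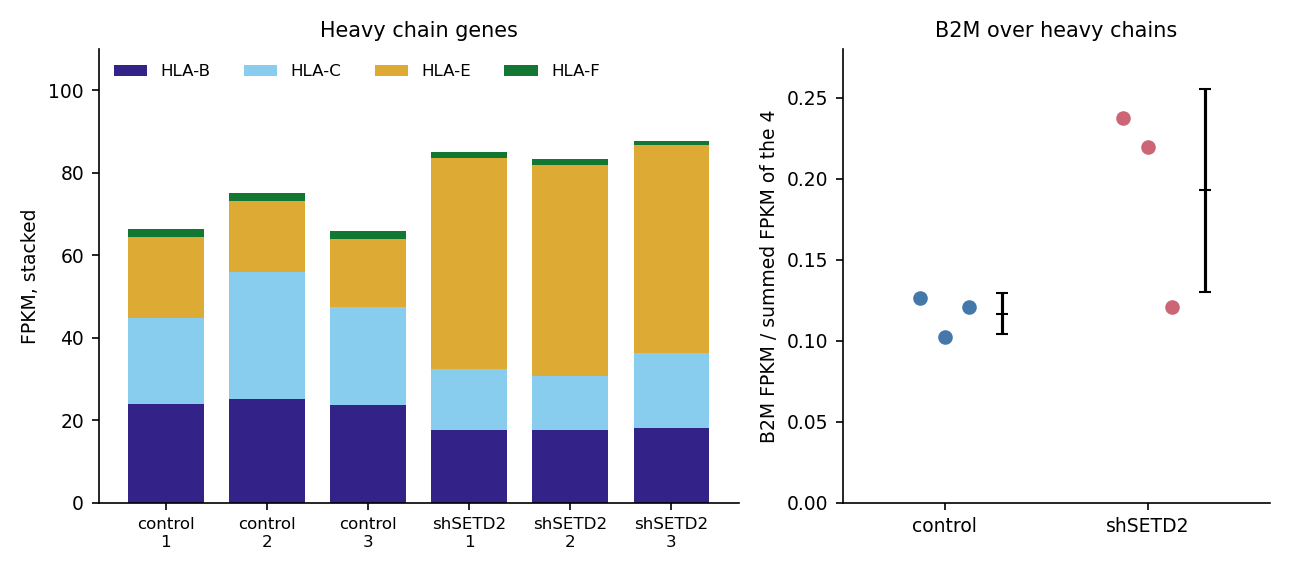
Stacked FPKM of HLA-B, HLA-C, HLA-E and HLA-F in each library (left), and B2M FPKM over their sum (right), with points for libraries and, beside them, the mean ± SD of 3. HLA-E takes 57.5% to 61.4% of the sum in the shSETD2 libraries and 23.0% to 29.5% in the control libraries, and the B2M ratio of shSETD2 library 3, 0.121, equals that of control library 3 to 3 digits.

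Of the 12 other genes of peptide loading, folding and cytosolic or luminal trimming, 11 were tested, with 5 higher, 3 lower and 3 not past the threshold in limma, and a median log2 fold change of 0.14. LNPEP, an aminopeptidase that trims peptides in endosomes, rose from 4.68 ± 0.119 to 13.0 ± 0.644 FPKM (SD, n = 3), and BLMH, a cytosolic hydrolase that cuts peptides further, fell from 11.3 ± 0.685 to 4.12 ± 0.225 FPKM (SD, n = 3). The chaperone HSPA5 (BiP) rose from 130 ± 1.83 to 278 ± 4.03 FPKM (SD, n = 3). The remaining partners of the loading complex varied: PDIA3, the oxidoreductase bound to tapasin, rose by 0.71 on the log2 scale, whereas CALR (calreticulin) had a log2 fold change of 0.14 (adjusted p = 0.132 in limma) and CANX (calnexin) one of -0.03 (adjusted p = 0.873 in limma). Both turned with the scaling, CALR to -0.08 after quantile normalization (adjusted p = 0.417 in limma) and CANX to 0.30 after median ratio scaling. CALR passed the threshold as higher with median ratio scaling (0.47, adjusted p = 1.22e-03 in limma) and upper quartile scaling (0.19, adjusted p = 0.0491 in limma). It also passed without control library 3 (0.21, adjusted p = 0.0174 in limma). ERAP2, the paralogue and neighbour of ERAP1, rose by 0.44 on the log2 scale, from 0.376 ± 0.0287 to 0.864 ± 0.0440 FPKM (SD, n = 3), and TAPBPL, the tapasin-like editor, was under the filter with at most 0.110 FPKM in a control library and 0.653 to 1.11 FPKM in the shSETD2 libraries.

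All 5 genes of the immunoproteasome and its PA28 activator rose, with a median log2 fold change of 2.21. PSMB8, a catalytic subunit next to TAP1 and TAP2 in the genome, rose from 0.0730 ± 0.0399 to 22.1 ± 0.966 FPKM (SD, n = 3), which on the log2 scale is a fold change of 4.43 (adjusted p = 2.56e-08 in limma). PSMB9 rose by 3.23 and PSMB10 by 2.21 on the log2 scale, and the activator subunits PSME1 and PSME2 by 1.44 and 2.16. Of the constitutive subunits that these replace, PSMB6 and PSMB7 rose by 0.50 and 0.51 on the log2 scale, and PSMB5 did not pass the threshold (log2 fold change 0.15, adjusted p = 0.705 in limma). PSMB5 had 34.3, 12.9 and 15.6 FPKM in the control libraries and 24.9, 21.4 and 18.2 FPKM in the shSETD2 libraries, and control library 1 alone stood above the rest. Without it the log2 fold change of PSMB5 was 0.56 (adjusted p = 0.0187 in limma), and without control library 2 it was -0.11.

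Of 16 transcription factors that act on class I promoters, 15 were tested, with 9 higher, 4 lower and 2 not past the threshold in limma, and a median log2 fold change of 0.60. IRF1, which binds the ISRE, rose from 1.10 ± 0.0263 to 11.3 ± 0.345 FPKM (SD, n = 3), which on the log2 scale is a fold change of 2.56 (adjusted p = 7.97e-08 in limma). NFKB1, the gene of the p50 subunit that binds κB sites, rose from 3.96 ± 0.0686 to 13.6 ± 0.296 FPKM (SD, n = 3). Of the RFX complex, which binds the SXY module, RFXAP fell from 11.5 ± 0.261 to 1.84 ± 0.0241 FPKM (SD, n = 3; log2 fold change -2.13) and RFX5 fell from 15.8 ± 0.659 to 10.8 ± 0.156 FPKM (SD, n = 3), while RFXANK did not pass the threshold (log2 fold change -0.15, adjusted p = 0.104 in limma), turned to 0.14 with median ratio scaling and passed without control library 2 (-0.20, adjusted p = 0.0460 in limma). NLRC5 was under the filter, with 0.153 to 0.258 FPKM in the control and 0.148 to 0.194 FPKM in the shSETD2 libraries, which overlapped. Besides RFXAP and RFX5, the lower genes were NFYA and NFYB. NFYA fell from 18.7 ± 0.931 to 7.91 ± 0.593 and NFYB from 6.07 ± 0.116 to 3.06 ± 0.398 FPKM (SD, n = 3). NFYC rose from 3.83 ± 0.286 to 6.54 ± 0.190 FPKM (SD, n = 3).

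Of 14 genes of interferons, their receptors and JAK kinases, 9 were listed and tested, with 3 higher, 3 lower and 3 not past the threshold in limma, although median ratio scaling gave 6 higher and 1 lower. JAK1, a kinase of the interferon receptors, rose from 21.4 ± 0.912 to 96.0 ± 0.787 FPKM (SD, n = 3). The receptor chains IFNGR2 and IFNAR2 rose by 1.00 and 0.99 on the log2 scale. The 3 lower genes were the receptor chains IFNLR1 and IFNGR1 and the kinase JAK2, with log2 fold changes of -0.97, -0.38 and -0.35.

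Of 18 class I-like genes and NKG2D ligands, 10 were listed and 8 tested, with 5 higher, 2 lower and 1 not past the threshold in limma, and a median log2 fold change of 1.11. MICB, a stress ligand of natural killer cells, rose from 2.77 ± 0.374 to 23.4 ± 1.10 FPKM (SD, n = 3), and PROCR, the endothelial protein C receptor, rose from 8.36 ± 0.728 to 36.7 ± 0.534 FPKM (SD, n = 3). HFE, the iron regulator that also pairs with beta-2 microglobulin, had at most 0.0163 FPKM in a control library and 2.37 to 2.91 FPKM in the shSETD2 libraries. The 2 lower genes were FCGRT, from 4.89 ± 0.597 to 1.57 ± 0.404 FPKM, and ULBP2, from 6.97 ± 0.761 to 4.18 ± 0.107 FPKM (SD, n = 3).

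Of 16 genes of the class II pathway, which shows peptides from outside the cell to CD4+ T cells, 11 were listed and 8 tested. In limma 6 were lower and 2 did not pass the threshold, and median ratio scaling gave these 2 as higher. HLA-DRB1 had 3.55, 2.89 and 3.75 FPKM in the control libraries and was listed at 0 in all 3 shSETD2 libraries. HLA-DQB1, with 2.35 ± 0.531 FPKM in the control libraries (SD, n = 3), and HLA-DPB1, with 1.53 ± 0.163 FPKM (SD, n = 3), were also listed at 0 in every shSETD2 library. These are the beta chains of the class II molecules that professional antigen-presenting cells use.

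**Figure D4:**
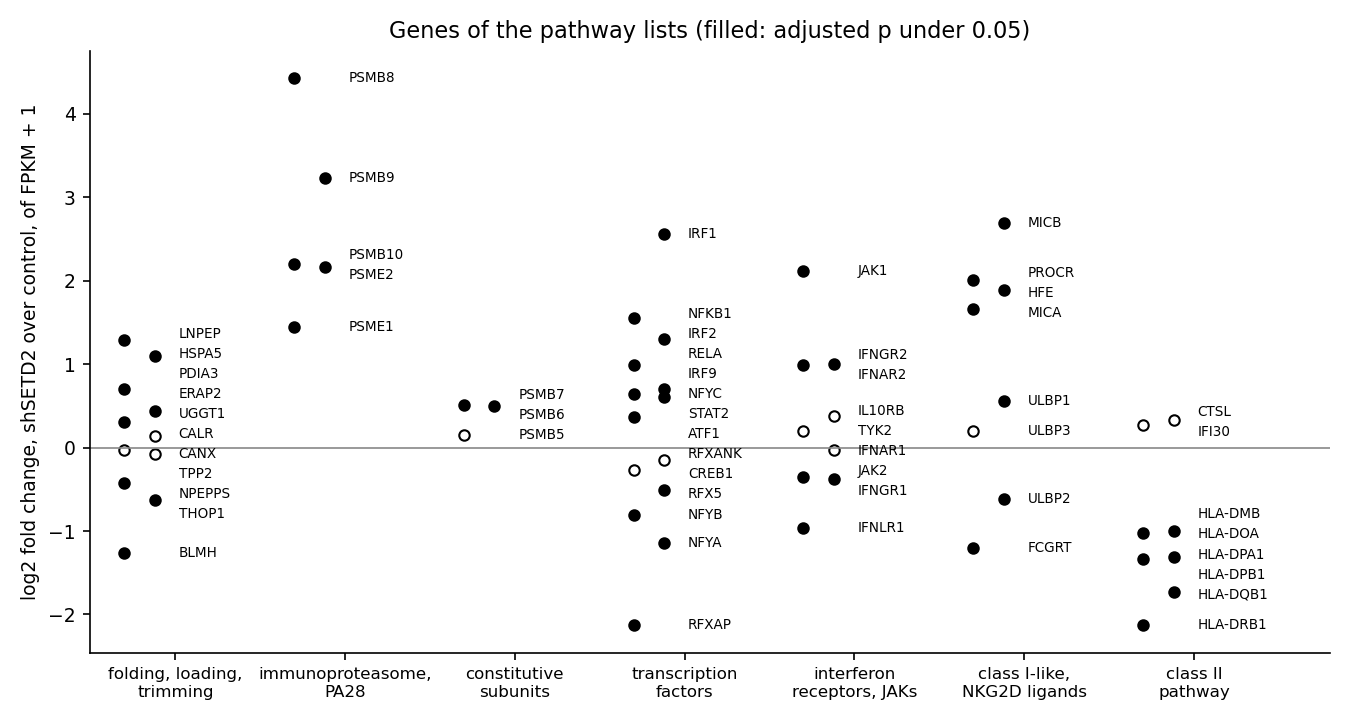
Log2 fold change of FPKM + 1, shSETD2 over control, of tested genes of 7 pathway lists, without genes not reported here. Points are genes, filled where the adjusted p in limma was under 0.05, and the names beside each column stand in the order of its points. All 5 immunoproteasome genes lie above 0, from 1.44 to 4.43, and 6 of 8 class II genes lie near or below -1.

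Of the 9 genes, 7 lie in the MHC region of chromosome 6, here taken from the start of HLA-F to the end of TAPBP, 29690552 to 33282164 in hg19 or 3.59 Mb. The region held 111 listed genes, of which 102 were tested, with 39 higher (38.2%, against 26.8% of all genes tested) and 43 lower (42.2%, against 51.8%) in limma, and a median log2 fold change of -0.11. Median ratio scaling turned this balance, with 49 higher and 30 lower in the region. Without the genes of the set, 35 of 95 tested genes were higher and 40 were lower. The largest rises were those of IER3, an immediate early gene, from 5.79 to 739.1 FPKM (log2 fold change 6.78), TNF, the inflammatory cytokine, from 0.0618 to 108.6 FPKM (log2 fold change 6.69), and PSMB8. The largest falls were those of HSD17B8, a steroid dehydrogenase, from 5.37 to 0.411 FPKM (log2 fold change -2.17), HLA-DRB1 (log2 fold change -2.13), and ATAT1, the tubulin acetyltransferase, from 3.27 to 0.132 FPKM (log2 fold change -1.91). TAP1, TAP2, PSMB8 and PSMB9, which lie side by side, all rose, whereas HLA-B and HLA-C stood among neighbours that moved in both directions.

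**Figure D5:**
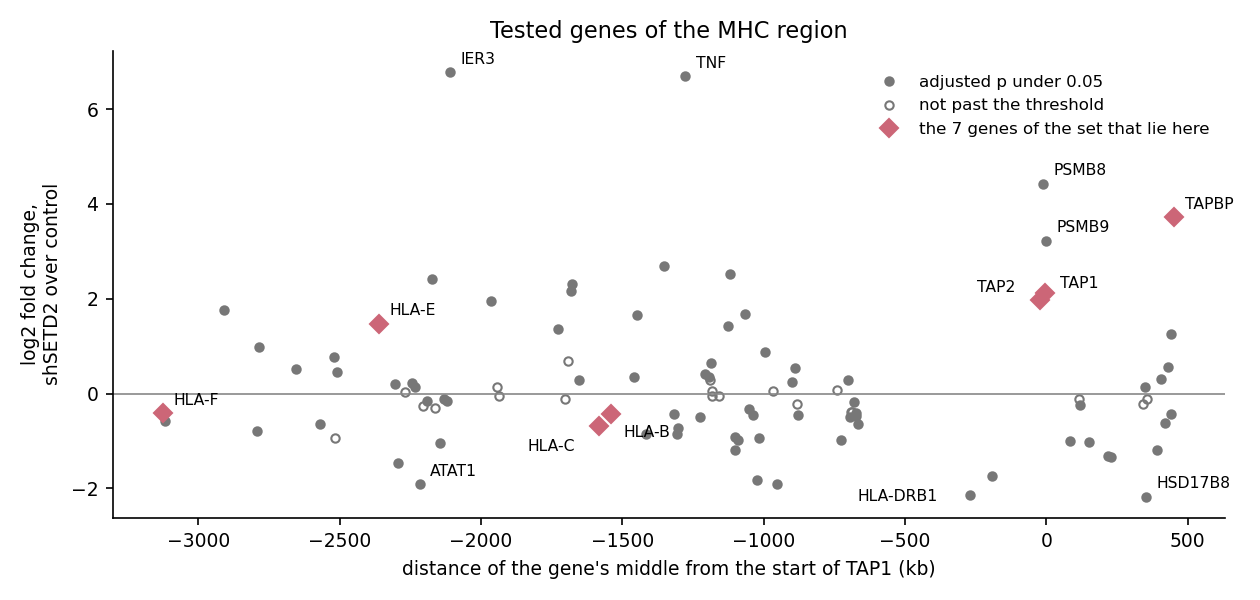
Log2 fold change of FPKM + 1, shSETD2 over control, of the 102 tested genes of the MHC region against the distance of the middle of each gene from the start of TAP1 in kb. Diamonds are the 7 genes of the set, filled circles other genes with an adjusted p under 0.05 in limma and open circles genes short of it. TAP1, TAP2, PSMB8 and PSMB9 lie together at 1.97 to 4.43, and HLA-B and HLA-C lie together just below 0.

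Genes with a pattern like that of 3 of the genes were sought over the 6 libraries, by the root mean square difference of log2(FPKM + 1) after subtracting each gene's control mean. The nearest to HLA-B were CBX1, at 0.0122, NPEPPS, at 0.0189, and OAZ1, at 0.0231, and 859 of 14067 genes lay within 0.1 of it. The nearest to TAP1 were PRAG1, at 0.0400, ELF3, at 0.0558, and ZC3H7B, at 0.0560, with 55 genes within 0.1. The nearest to B2M were PRDX1, at 0.0661, DVL1, at 0.0794, and ESRRA, at 0.0954, and these 3 were the only genes within 0.1. The small shift of HLA-B was thus common in these libraries. Few genes shared the pattern of B2M, in which shSETD2 library 3 departed from the others of its group. The distance also counts the spread within a group, so it does not show how common a shift of the size of that of B2M was.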

How the data were processed

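The authors aligned reads to hg19 (HISAT2) and computed FPKM per gene and library with Ballgown, and this FPKM was deposited. Versions and the strand setting of the counting are not given in the sources used here. A second deposited table adds the authors' own comparison of the groups (fold changes, p-values and q-values), which was not used. FPKM hides the depth of each library, so precision rests on the spread over 3 libraries.

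The 14068 of 15897 genes whose mean FPKM reached 0.5 were tested on log2(FPKM + 1) by lmFit and eBayes with an intensity trend in limma 3.58.1 (R 4.3.3), with Benjamini-Hochberg adjustment over all of them and a threshold of 0.05. The code was tested on simulated data. Shares and ratios were compared by exact two-sided permutation over libraries. Groups came from the sample labels.

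The 9 genes and the pathway, marker and region lists were chosen with earlier results of these data known. Lists are described by counts and medians, with no test of the list. Named were the 9 genes, SETD2, up to 3 genes of each list with the largest changes and those a count turned on, the 3 highest and lowest of the MHC region, and the 3 genes most alike to HLA-B, B2M and TAP1. CALR, CANX, PDIA3, ERAP2, TAPBPL, PSME1, PSME2, RFX5, RFXANK and NLRC5 were named after their values were seen. IFNLR1, IFNGR1, JAK2, FCGRT, ULBP2, EPCAM, CLDN4, ESRP1, NFYA, NFYB and NFYC were named likewise, without their values in the alternatives. Some genes are not reported here.

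Promoters were RefSeq windows of GRCh38.p14, searched on both strands. Alternatives were pseudocounts of 0.1 and 0.01, no filter or a mean FPKM of at least 5, median ratio, quantile and upper quartile scaling, an ordinary linear model, no intensity trend, the replicate number as a block, and each library left out in turn. Further software was Python 3.11.15 with scipy 1.17.1, pandas 2.3.3, numpy 2.4.6 and matplotlib 3.10.9.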

Additional observations from a re-analysis of the deposited data

How the results depend on the processing

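TAP1, TAP2, TAPBP, ERAP1, HLA-E and B2M stayed higher and past the threshold in all 16 alternatives, with adjusted p-values of at most 0.0409 in limma, the highest being that of B2M, whose log2 fold change ranged from 0.73 to 1.20. With median ratio scaling only 1 of the 9 genes, HLA-F, was lower, since HLA-B (-0.11, adjusted p = 0.0600) and HLA-C (-0.36, adjusted p = 0.0919) missed the threshold in limma. HLA-F missed it after quantile normalization (-0.02, adjusted p = 0.818) and was not tested with a mean FPKM of at least 5. That filter left 7078 genes, 2401 higher and 3246 lower, and 64 genes of the MHC region, 31 higher and 22 lower. It also raised the share of calls that were higher from 34.1% to 42.5%, and the cause was not tested. Median ratio scaling gave 49 higher and 30 lower genes of the region. None of the 9 genes changed sign. Among other named genes, those short of the threshold did: CALR (-0.076, quantile normalization), CANX (0.30 with median ratio and 0.018 with upper quartile scaling), RFXANK (0.14, median ratio scaling), and, with 1 library left out, CANX (-0.24 to 0.071) and PSMB5 (-0.11 to 0.56). CALR passed the threshold as higher with median ratio scaling (0.47) and upper quartile scaling (0.19). Leaving out 1 library at a time changed no call of the 9 genes, and the log2 fold change of HLA-C ranged from -0.79 to -0.53. The log2 fold change of SETD2 ranged from -0.83 to -0.27, with adjusted p-values from 6.66e-03 to 0.343 in limma, the weakest with median ratio scaling, and without 1 library from -0.83 to -0.45. It passed the threshold with the replicate block (-0.58, adjusted p = 0.0157), without control library 2 (-0.83, adjusted p = 6.66e-03) and without shSETD2 library 3 (-0.73, adjusted p = 0.0420).

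Control and shSETD2 libraries share the replicate numbers 1 to 3. Their deviations from the group means correlated at r = -0.0237, 0.0177 and -0.0077 over genes for the same numbers. Not every library correlated best with its own number. The sample titles do not say whether libraries of the same number were handled together, and these correlations cannot tell. With the replicate block, 6 of the 9 genes were higher and 3 lower, 40 and 44 genes of the MHC region were higher and lower, and no call of the 9 genes changed.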
